A study of Chlorella sorokiniana with 6 samples.

Results

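The transcripts described here encode the machinery that carries newly made proteins to their place in the cell of *Chlorella sorokiniana*, a unicellular green alga. They were chosen by annotation alone, as the rows of the deposited count table that the plant annotation scheme MapMan puts in its class for protein targeting or in a subclass of it. This gave 200 of 18310 transcripts, of which 21 were annotated to the nucleus, 15 to mitochondria, 26 to the chloroplast, 115 to the secretory pathway and 13 to the peroxisome, and 10 had no destination. Normal cultures received 10 µmol photons of continuous light and no glucose, and mixotrophic cultures 100 µmol photons and 2% glucose, each for 7 days at 27 °C after growth of a pre-culture under the normal light. Light and glucose changed together and cannot be told apart. Each condition had 3 sequenced samples, which the methods of the study describe as independent repeats. Whether they are separate cultures is not stated in the labels. The labels give every sample a strain number of its own, from NIES-2168 to NIES-2173, whereas the methods of the study name NIES-2168 alone.

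Proteins encoded in the nucleus are made in the cytosol and are sorted by signals in their own sequence. Importins and exportins carry cargo through the nuclear pore, with the small GTPase Ran giving the direction. The TOM and TIM complexes of the outer and inner mitochondrial membranes, and the TOC and TIC complexes of the chloroplast envelope, pass unfolded precursors inwards, where processing peptidases remove the targeting sequence. Proteins of the secretory pathway are recognised by the signal recognition particle (SRP), enter the endoplasmic reticulum (ER) through the Sec61 channel and travel on in coated vesicles, and peroxins serve the peroxisome. Roles given below are those known from plants, yeast or animals, since the annotation rests on the best match in *Arabidopsis* or in another sequenced species.

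Libraries held 2535461 to 4444858 counts, and replicate 1 stood apart. Over the 4 libraries of replicates 2 and 3, which the expression sheet of the study lists, the common coefficient of variation between replicates was 4.64%. Over all 6 libraries it was 35.5%. Whether replicates 2 and 3 differ as cultures or only as libraries was not tested. The adjusted p values over 4 libraries rest on their spread. In both conditions replicate 1 held at most 0.5 times the level of every other library in a group of 878 transcripts, and 11 targeting transcripts belonged to it. Comparisons below are therefore given for the 4 libraries, where a transcript was called at a Benjamini-Hochberg adjusted p under 0.05 in edgeR's quasi-likelihood test, and then for all 6. Fold changes are of mixotrophic over normal, on the log2 scale, with their standard error, and levels are counts scaled to the library total (CPM). Levels of different transcripts are not compared with each other, because no transcript lengths were used.

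Targeting transcripts took a larger part of the RNA in mixotrophic cultures. They held 1.25%, 1.23% and 1.25% of all counts in normal replicates 1, 2 and 3, and 1.49%, 1.47% and 1.46% in mixotrophic replicates 1, 2 and 3. The conditions did not overlap. As a sum, chloroplast members went the other way. They held 0.303%, 0.304% and 0.312% of counts in normal and 0.286%, 0.284% and 0.286% in mixotrophic replicates 1, 2 and 3. The chloroplast member with the most counts, Tic110 (g5725), weighs most in this sum. It went from 847, 1096 and 1069 CPM in normal to 636, 675 and 686 CPM in mixotrophic cultures. Counted by transcript, 9 of 21 tested chloroplast members rose over 4 libraries and 5 fell. Of 149 members with enough counts for the test over 4 libraries, 50 rose (33.6%, against 28.6% of all transcripts tested) and 30 fell (20.1%, against 29% of all). Over 6 libraries 26 of 147 rose (17.7%, against 13.3% of all) and 10 fell (6.8%, against 15.2% of all). With the replicate number as a block 15 of the 147 rose, a share near the 9.97% of all, and 8 fell, a smaller share than the 10.5% of all. The median log2 fold change of the members was 0.02 over 4 libraries and 0.10 over 6, beside medians of -0.02 and -0.04 over all transcripts tested. Without regard to any test, 48 of these 147 members lay higher in all mixotrophic than in all normal libraries and 16 lay lower. The shares over all transcripts were 24.5% and 24.1%.

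**Figure D1:**
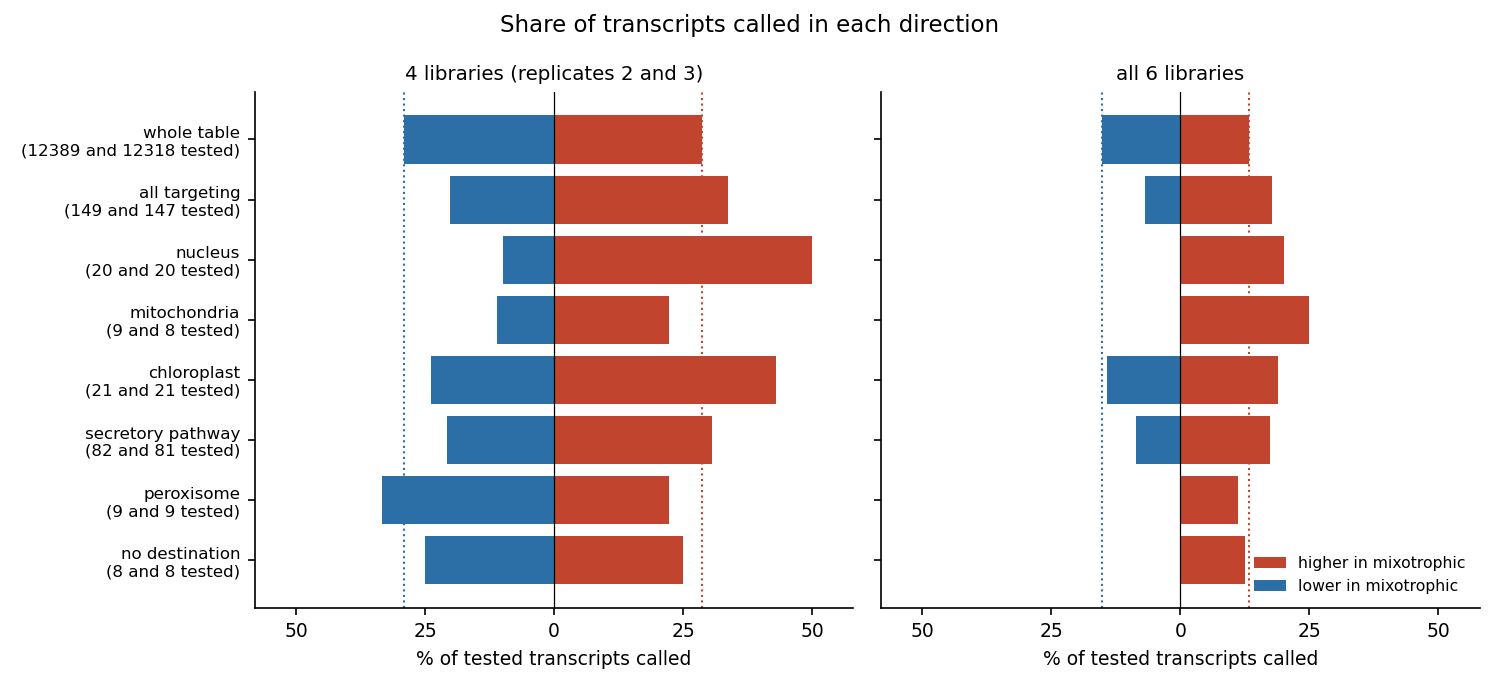
Share of tested transcripts called higher (red, to the right) or lower (blue, to the left) in mixotrophic cultures, in percent, for the whole count table, all targeting transcripts and each destination, over 4 libraries (left) and all 6 (right). Dotted lines mark the shares of the whole table. Nuclear members were called higher in 50% and lower in 10% of 20 over 4 libraries.

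Of the nuclear members, 10 of 20 tested rose over 4 libraries (50%, against 28.6% of all) and 2 fell (10%, against 29%), with a median of 0.37. Over 6 libraries 4 of 20 rose (20%, against 13.3%), none fell (15.2% of all did) and the median was 0.19. With the replicate number as a block over 6 libraries 2 of 20 rose, a share near the 9.97% of all. The member with the widest difference in this class was NTF2 (g4307), the carrier that brings Ran back into the nucleus. It held 19.0, 19.6 and 19.0 CPM in normal replicates 1, 2 and 3, and 70.7, 69.5 and 76.5 CPM in mixotrophic replicates 1, 2 and 3. The 3 libraries of a condition lay close together, and all mixotrophic values stood far above all normal ones. The difference was 3.72-fold over 4 libraries (1.90 ± 0.15, adjusted p = 3.34e-12) and 3.76-fold over 6 (1.91 ± 0.11, adjusted p = 0.000559).

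Importins and exportins, the receptors that carry cargo through the pore, rose in 6 of 11 tested members over 4 libraries (54.5%, against 28.6% of all transcripts) and fell in none. Over 6 libraries 2 of 11 rose (18.2%, against 13.3% of all), and 1 with the block. Importin beta (g3856), which pairs with importin alpha to bring in proteins with the classical nuclear signal, held 475, 318 and 320 CPM in normal cultures and 636, 627 and 627 CPM in mixotrophic cultures. Normal replicate 1 lay between the other normal libraries and the mixotrophic ones, and the conditions did not overlap. Importin beta was 1.93-fold higher over 4 libraries (0.95 ± 0.057, adjusted p = 1.45e-14) and 1.7-fold higher over 6 (0.76 ± 0.18, adjusted p = 0.0253). The contig of this transcript holds a further predicted transcript with no counts, and whether reads of both were counted together was not tested.

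Importin alpha (g1686), the adaptor that binds the signal itself, had 810, 620 and 577 CPM in normal cultures and 764, 766 and 807 CPM in mixotrophic cultures. Its normal replicate 1 was the highest of the 6 values. The rise of 0.37 ± 0.054 over 4 libraries (adjusted p = 8.85e-07) was not called over 6 (0.22 ± 0.14, adjusted p = 0.311). Exportin XPO1 (g5696), the export receptor for the leucine-rich signal, also had its normal replicate 1 among the mixotrophic values, with 322, 256 and 225 CPM in normal and 335, 318 and 338 CPM in mixotrophic cultures (0.43 over 4 libraries, adjusted p = 4.31e-06, and 0.30 over 6, adjusted p = 0.188). CAS, which returns importin alpha to the cytosol, had 2 transcripts, of which g16810 held 90.1, 74.5 and 86.2 CPM against 117, 110 and 110 CPM. It passed the test over 4 libraries (0.43, adjusted p = 0.000426) and over 6 (0.43, adjusted p = 0.037), though not with the replicate number as a block (adjusted p = 0.1). Both transcripts of transportin 1, a receptor for another class of cargo, did not pass, with log2 fold changes of -0.27 and -0.04.

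Nucleoporins, which build the pore, rose in 2 of 4 tested members over 4 libraries (50%, against 28.6% of all transcripts) and fell in none. The 4 members come from 3 components. Over 6 libraries 1 of the 4 rose (25%, against 13.3% of all), and none with the block. Nup96 (g10485) held 112, 97.0 and 99.3 CPM in normal and 145, 141 and 144 CPM in mixotrophic cultures. Its groups did not overlap, and it passed over 4 libraries (0.51 ± 0.086, adjusted p = 7.61e-06) and over 6 (0.48 ± 0.1, adjusted p = 0.0208), but not with the block (adjusted p = 0.0758). Nup98 (g10486), from the same assembly component, had 309, 333 and 307 CPM against 344, 324 and 333 CPM, with a log2 fold change of 0.02. The summed counts of that component gave -0.06 over 4 libraries (adjusted p = 0.399) and -0.01 over 6 (adjusted p = 0.97). Nup155 (g6324) rose over 4 libraries (0.36, adjusted p = 7.06e-05) and not over 6 (0.31, adjusted p = 0.0859).

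The 2 nuclear members that fell over 4 libraries carry no transport role in their annotation. An armadillo (ARM) repeat protein (g7368) had 120, 308 and 335 CPM in normal and 179, 166 and 176 CPM in mixotrophic cultures. Normal replicate 1 lay below every other library, and the fall of 0.94 ± 0.069 over 4 libraries (adjusted p = 1.4e-12) was not called over 6 (-0.55 ± 0.37, adjusted p = 0.328). The other was an unknown protein (g12724) with 13.5, 19.6 and 23.6 CPM against 15.1, 17.0 and 13.2 CPM, which passed over 4 libraries (adjusted p = 0.0344) and neither over 6 (adjusted p = 0.386) nor with the replicate block over 4 (adjusted p = 0.0673).

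**Figure D2:**
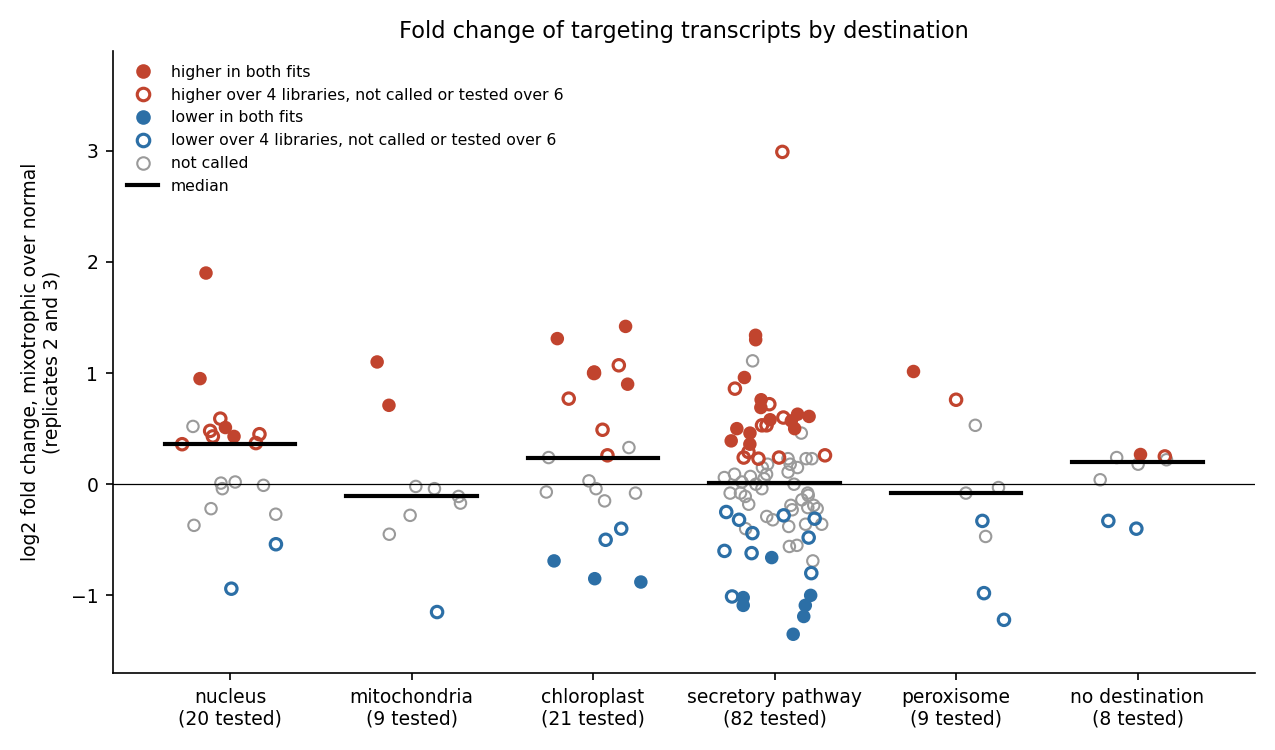
Log2 fold change of mixotrophic over normal cultures over replicates 2 and 3 (vertical axis) for every tested targeting transcript by destination, 1 point per transcript, with the median as a bar. Filled points were called in both fits and open coloured points over 4 libraries alone. The nucleus has the highest median, 0.37, and the topmost point is a Sec14-like transcript at 2.99.

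Among mitochondrial members 2 of 9 tested rose over 4 libraries (22.2%, against 28.6% of all) and 1 fell (11.1%, against 29%). Both rises were called over 6 as well (2 of 8, or 25%, against 13.3% of all). No member fell over 6, where 15.2% of all did. The beta subunit of the mitochondrial processing peptidase (MPP beta, g5801), which belongs to the enzyme that removes the presequence of imported proteins, held 197, 396 and 399 CPM in normal and 852, 860 and 872 CPM in mixotrophic cultures. Mixotrophic libraries agreed closely, while normal replicate 1 was the lowest of all. MPP beta was 2.14-fold higher over 4 libraries (SE 0.054 on the log2 scale, adjusted p = 1.34e-16) and 2.6-fold higher over 6 (1.38 ± 0.28, adjusted p = 0.0161). Tom20 (g16267), a receptor on the outer membrane for precursors, held 59.0, 114 and 94.4 CPM in normal and 167, 167 and 178 CPM in mixotrophic cultures. The groups stood apart, with normal replicate 1 again lowest, and the rise was 0.71 ± 0.088 over 4 libraries (adjusted p = 5.68e-08) and 0.94 ± 0.24 over 6 (adjusted p = 0.0349).

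The inner membrane step gave no rise among its tested members. Of 7 members with a role there, including a Tim44-related protein annotated without a destination, 2 had no counts. Of the 5 tested over 4 libraries, none rose (28.6% of all did) and 1 fell. Their median level was low, 15.6 CPM, and their median log2 fold change was -0.28 over 4 libraries and 0.10 over 6. Tim10 (g8019 and g8020), a chaperone of the intermembrane space, had log2 fold changes of -0.11 and -0.45 (adjusted p = 0.663 and 0.0664), and a Tim17, Tim22 and Tim23 family member (g14881) had -0.28 (adjusted p = 0.513). The Tim44-related transcript (g9454) held 18.7, 50.0 and 61.9 CPM in normal and 44.4, 47.7 and 43.5 CPM in mixotrophic cultures. It fell by 0.33 over 4 libraries (adjusted p = 0.0365), was not called with the replicate block (adjusted p = 0.0782) and had a log2 fold change of 0.06 over 6 (adjusted p = 0.954).

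The mitochondrial member that fell was Tom22 (g12342), another outer membrane receptor subunit, with 0.276, 5.41 and 5.57 CPM in normal and 0.216, 2.46 and 2.52 CPM in mixotrophic cultures. It belongs to the group low in replicate 1 of both conditions, as do Tim23 (g7712) and g7752, a transcript without a description. Its fall over 4 libraries of 1.15 ± 0.44 (adjusted p = 0.0246) rests on 9 to 17 counts per library, and it had too few counts to be tested over 6. With this group left out, no mitochondrial member was called lower.

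For the chloroplast, 9 of 21 tested members rose over 4 libraries (42.9%, against 28.6% of all) and 5 fell (23.8%, against 29%). Over 6 libraries 4 rose (19%, against 13.3%) and 3 fell (14.3%, against 15.2%). The medians were 0.24 and 0.28. At the outer envelope all 3 tested members with a role there, which come from 2 components, rose over 4 libraries (28.6% of all did). Of these, 2 are GTPase transcripts of 1 component, and the other is Oep80, which serves insertion into the outer envelope. Over 6 libraries 2 of the 3 rose (13.3% of all did), and these share 1 component. A GTPase of the AIG1 type at the outer envelope was present as g7131 with 20.9, 18.7 and 20.3 CPM in normal and 45.7, 54.3 and 52.4 CPM in mixotrophic cultures. A second transcript of the same component, g7137, held 21.8, 20.0 and 21.0 CPM against 49.8, 55.3 and 47.9 CPM. Replicates agreed closely, and the rises over 4 libraries were 2.68-fold for g7131 (1.42 ± 0.16, adjusted p = 5.21e-09) and 2.48-fold for g7137 (1.31 ± 0.16, adjusted p = 3.99e-08). Both were called over 6 libraries (1.34, adjusted p = 0.00182, and 1.28, adjusted p = 0.00169). With all counts of their assembly component summed, the rise was smaller, 0.50 ± 0.1 over 4 libraries (adjusted p = 0.000356) and 0.47 over 6 (adjusted p = 0.0268).

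Oep80 (g16342), the channel-type protein related to Toc75 that serves the insertion of outer envelope proteins in *Arabidopsis*, held 80.5, 46.2 and 45.6 CPM in normal and 94.6, 98.3 and 97.8 CPM in mixotrophic cultures. Normal replicate 1 lay much nearer to the mixotrophic libraries. The rise of 1.07 ± 0.11 over 4 libraries (adjusted p = 1.61e-09) missed the threshold over 6 (0.75 ± 0.24, adjusted p = 0.0662).

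At the inner envelope a scaffold protein with many counts fell. Tic110 (g5725), which collects stromal chaperones at the inner membrane, had 847, 1096 and 1069 CPM in normal and 636, 675 and 686 CPM in mixotrophic cultures. All mixotrophic values lay below all normal ones, and the fall was 1.62-fold over 4 libraries (-0.69 ± 0.05, adjusted p = 1.03e-12) and 1.51-fold over 6 (-0.59 ± 0.12, adjusted p = 0.0163). Tic40 (g1732), its co-chaperone, fell by 0.50 over 4 libraries (adjusted p = 0.00361), where the 6 values were 32.0, 62.9 and 78.6 CPM against 41.4, 59.7 and 42.1 CPM and overlapped (adjusted p = 0.624 over 6). Tic22 of the intermembrane space had 1 of 2 transcripts called higher over 4 libraries (g15074, 0.49, adjusted p = 0.0148, and 0.0581 over 6).

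The thylakoid membrane has its own insertion machinery, and here the 2 kinds of Alb3 moved in opposite directions. Alb3 is the insertase through which the chloroplast SRP delivers light-harvesting proteins. Transcripts of a first kind (g13504 and g13505) held 62.8, 42.5 and 40.6 CPM and 67.8, 36.6 and 41.0 CPM in normal cultures, and 80.0, 77.7 and 79.6 CPM and 76.3, 75.7 and 83.3 CPM in mixotrophic cultures. They rose by 0.90 ± 0.12 and 1.00 ± 0.12 over 4 libraries (adjusted p = 1.8e-07 and 4.28e-08). Over 6 libraries g13504 was called (0.70, adjusted p = 0.0405, and 0.0544 with the block) and g13505 was not (0.69, adjusted p = 0.087). Transcripts of the second kind (g7603 and g7604) fell. The first of them held 266, 311 and 311 CPM in normal and 164, 169 and 183 CPM in mixotrophic cultures, and g7604 held 254, 297 and 293 CPM against 152, 157 and 168 CPM. Their falls of 0.85 ± 0.068 and 0.88 ± 0.069 over 4 libraries (adjusted p = 7.81e-12 and 4.74e-12) were called over 6 as well (-0.79, adjusted p = 0.00523, and -0.83, adjusted p = 0.00449).

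The ratio of the first Alb3 kind to the second, in summed counts, was 0.251, 0.13 and 0.135 in normal replicates 1, 2 and 3 and 0.495, 0.471 and 0.464 in mixotrophic replicates 1, 2 and 3. This pair was chosen after its values were seen, so no test is given. The factors that work upstream of Alb3 had smaller fold changes. cpSRP54 (g3488), the GTPase of the chloroplast SRP, had a log2 fold change of 0.26 over 4 libraries (adjusted p = 0.0184, and 0.0772 over 6). The receptor cpFtsY (g8725 and g8726) had 0.03 and -0.04 (adjusted p = 0.911 and 0.806). Of the other thylakoid routes, the channel SecY (g7114) rose by 0.77 over 4 libraries (adjusted p = 2.87e-07, and 0.111 over 6), whereas its motor SecA (g3632) had -0.08 (adjusted p = 0.407) and TatC (g2969) of the twin-arginine route had -0.15 (adjusted p = 0.111).

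The rule for named members also took 2 chloroplast transcripts whose descriptions are removed in the copy used here. Of these g9057 held 102, 84.1 and 91.1 CPM in normal and 185, 181 and 180 CPM in mixotrophic cultures and rose 2.02-fold over 4 libraries (1.01 ± 0.085, adjusted p = 2.11e-11) and 1.96-fold over 6 (adjusted p = 0.003). The other, g12089, held 351, 382 and 397 CPM against 318, 299 and 302 CPM (-0.40 ± 0.061, adjusted p = 1.72e-06, and 0.0581 over 6).

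**Figure D3:**
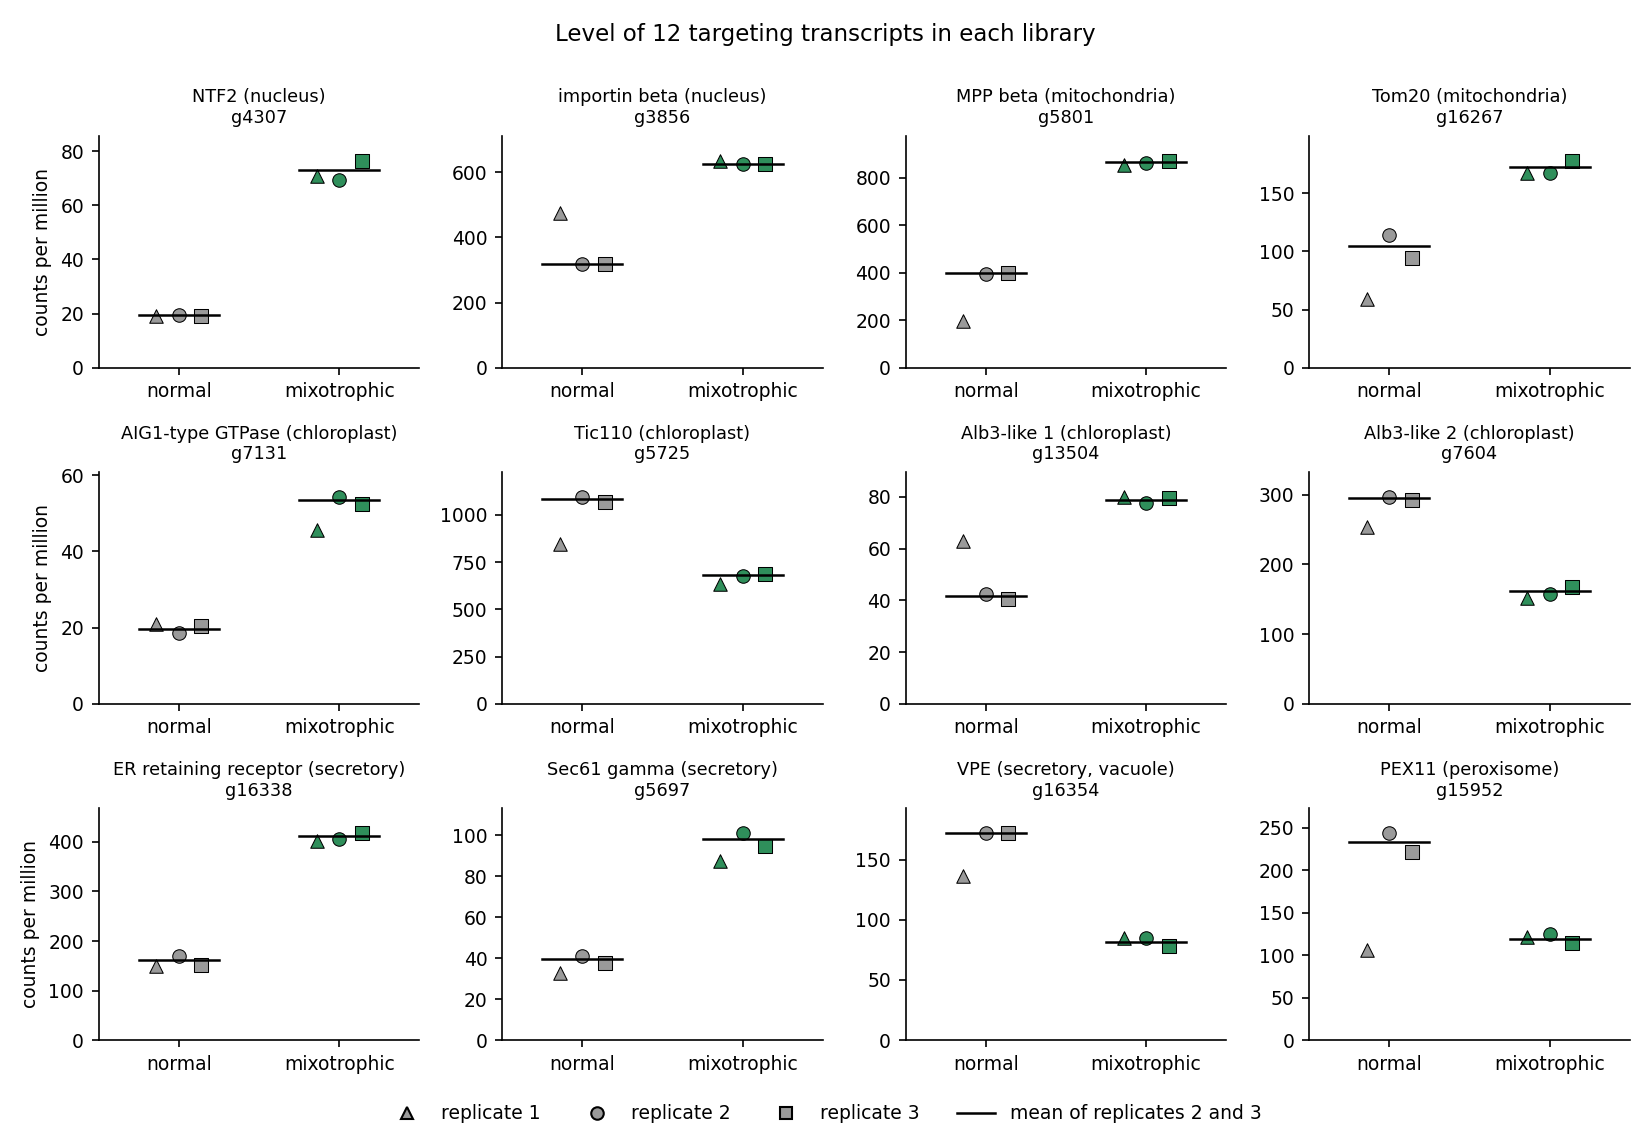
Levels in CPM of 12 targeting transcripts (vertical axes, starting at 0) in each normal (grey) and mixotrophic (green) library, with triangles for replicate 1, circles for replicate 2, squares for replicate 3 and a bar for the mean of replicates 2 and 3. NTF2, MPP beta, the AIG1-type GTPase, the ER retaining receptor and Sec61 gamma stand at least 2-fold higher in mixotrophic replicates 2 and 3, and normal replicate 1 of PEX11 lies below the mixotrophic values.

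The secretory pathway holds most of the class. Of 82 tested members 25 rose over 4 libraries (30.5%, near the 28.6% of all transcripts) and 17 fell (20.7%, against 29%). Of 81 over 6 libraries 14 rose (17.3%, against 13.3%) and 7 fell (8.64%, against 15.2%). The median log2 fold change was 0.01 over 4 libraries and 0.05 over 6. Members of the unspecified subclass, which holds SRP, Sec61 and the clathrin adaptors, rose in 15 (40.5%) and fell in 7 (18.9%) of 37 over 4 libraries. Those annotated to the vacuole rose in 3 (11.1%) and fell in 9 (33.3%) of 27, with a median of -0.29. Over 6 the unspecified subclass had 9 rises (24.3%) and 2 falls (5.41%), and the vacuole had no rise and 5 falls (19.2%) of 26. The difference between these subclasses was not tested.

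Entry into the ER was represented among the rises. Sec61 gamma (g5697), a small subunit of the channel, held 32.5, 41.2 and 37.7 CPM in normal and 87.3, 101 and 94.8 CPM in mixotrophic cultures. It was 2.46-fold higher over 4 libraries (1.30 ± 0.12, adjusted p = 1.15e-10) and 2.54-fold higher over 6 (1.35 ± 0.13, adjusted p = 0.0021). A second Sec61 gamma transcript (g12400) belongs to the group low in replicate 1, with no counts in replicate 1 of either condition, and had a log2 fold change of -0.22 over 4 libraries (adjusted p = 0.663). Sec61 alpha (g1758), the pore-forming subunit, held 70.3, 118 and 115 CPM against 180, 171 and 190 CPM and rose by 0.61 over 4 libraries (adjusted p = 1.8e-07) and 0.84 over 6 (adjusted p = 0.0339). Its component sum was not called over 6 (0.44, adjusted p = 0.364).

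The beta subunit of the SRP receptor, which anchors the receptor in the ER membrane, had 2 transcripts, and both rose in both fits. The first (g13889) held 29.8, 31.7 and 30.8 CPM in normal and 53.0, 60.7 and 62.5 CPM in mixotrophic cultures (0.96 over 4 libraries, adjusted p = 4.69e-07, and 0.93 over 6, adjusted p = 0.00382), and g13890 rose by 0.76 and 0.77. The alpha subunit (g1005), the GTPase of the receptor, went the other way over 4 libraries with 11.3, 12.1 and 17.0 CPM against 9.48, 10.6 and 6.45 CPM (-0.80, adjusted p = 0.0193, and 0.163 over 6). Of the cytosolic SRP, all 3 tested transcripts rose over 4 libraries by small amounts, from 0.24 to 0.27 (28.6% of all rose). Of these, 2 are SRP54 transcripts of 1 component, and 2 further members had no counts. Over 6 libraries 1 of SRP54 (g3962) was called (0.39, adjusted p = 0.0449, and 0.129 with the block), where 13.3% of all rose. None of the 3 tested signal peptidase transcripts passed in either fit, with log2 fold changes from 0.02 to 0.23 over 4 libraries.

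Retrieval to the ER had the secretory member with the smallest adjusted p. An ER lumen protein retaining receptor (g16338), of the family that returns escaped ER proteins from the Golgi apparatus, held 149, 170 and 151 CPM in normal and 402, 405 and 418 CPM in mixotrophic cultures. Replicates agreed in both conditions, and the receptor was 2.53-fold higher over 4 libraries (1.34 ± 0.07, adjusted p = 5.2e-16) and 2.6-fold higher over 6 (1.38 ± 0.098, adjusted p = 0.000869). ERD2 (g8919), of the same family, had 24.3, 27.9 and 30.1 CPM in normal cultures and at most 35.8 CPM in mixotrophic ones and did not pass (0.15, adjusted p = 0.463). A p24 protein (g2136), a cargo receptor of vesicles between ER and Golgi, rose by 0.57 over 4 libraries (adjusted p = 0.000193) and 0.61 over 6 (adjusted p = 0.0132, and 0.0512 with the block). Ero1 (g10077), the oxidase of the ER lumen, rose by 0.29 over 4 libraries (adjusted p = 0.00631, and 0.0511 over 6).

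Vesicle coats gave rises, values near 0 and 1 fall. Sec24a of the COPII coat, which selects cargo leaving the ER, rose in both of its transcripts, with g13733 at 165, 130 and 134 CPM in normal and 222, 216 and 218 CPM in mixotrophic cultures (0.69 over 4 libraries, adjusted p = 5.25e-09, and 0.61 over 6, adjusted p = 0.0166). The component of g13733 as a whole had 0.01 over 4 libraries (adjusted p = 0.908) and 0.05 over 6 (adjusted p = 0.714). Its partner Sec23 (g8750) and another Sec24 (g11107) did not pass, at 0.11 and -0.11 (adjusted p = 0.197 and 0.217). Clathrin adaptor subunits rose in 3 of 6 members over 4 libraries (50%, against 28.6% of all transcripts), and 1 fell (16.7%, against 29%). Over 6 libraries 2 rose (33.3%, against 13.3% of all), none fell, and none was called higher with the block. AP-1 mu (g6540) went from 150, 159 and 135 CPM to 199, 207 and 214 CPM (0.50, adjusted p = 3.22e-06, and 0.48 over 6, adjusted p = 0.021, or 0.0798 with the block). Sly1 (g14596), a regulator of SNARE fusion at the ER and Golgi, rose by 0.36 over 4 libraries (adjusted p = 0.000644) and 0.49 over 6 (adjusted p = 0.0209, and 0.0845 with the block).

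Small GTPases of the ARF family, which recruit coats, differed among themselves. An ARF transcript (g3704) rose by 0.46 over 4 libraries (adjusted p = 0.00201) and 0.59 over 6 (adjusted p = 0.0162, and 0.0643 with the block). Another (g13698) had 9.37, 12.5 and 13.8 CPM in normal and 6.47, 5.9 and 4.49 CPM in mixotrophic cultures and fell by 1.35 ± 0.31 over 4 libraries (adjusted p = 0.000437) and 1.07 over 6 (adjusted p = 0.0302, and 0.0694 with the block). With the counts of its whole assembly component summed, the log2 fold change was 0.12 (adjusted p = 0.483).

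Of the 10 falls called over 6 libraries, 5 were of members annotated to the vacuole. They were 19.2% of its 26 tested members, against 15.2% of all transcripts. The vacuolar processing enzyme (VPE), a protease that matures proteins within the vacuole, had 2 transcripts of 1 component. VPE g16354 held 136, 172 and 172 CPM in normal and 84.9, 85.0 and 78.5 CPM in mixotrophic cultures, and g16355 held 138, 165 and 166 CPM against 85.6, 78.9 and 86.6 CPM. They were 2.13-fold and 2.03-fold lower over 4 libraries (-1.09 ± 0.087 and -1.02 ± 0.086, adjusted p = 6.97e-12 and 2.28e-11) and 1.93-fold and 1.87-fold lower over 6 (adjusted p = 0.00518 and 0.00437). A pair of vacuolar transcripts without a description, g10330 and g10332, also came from 1 component. They fell by 1.00 and 1.09 over 4 libraries and by 0.92 and 0.93 over 6 (adjusted p = 0.00438 and 0.00518). Vps9 (g2178), which activates the Rab GTPase of endosomes, held 33.1, 32.5 and 32.8 CPM against 22.2, 22.4 and 19.3 CPM (-0.66 over 4 libraries, adjusted p = 0.00187, and -0.62 over 6, adjusted p = 0.0153, or 0.0624 with the block).

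The sorting complexes on the way to the vacuole gave no call over 6 libraries, where 13.3% of all rose and 15.2% fell. The HOPS and CORVET tethers hold membranes together before they fuse. Of their 9 tested transcripts, 4 are Vps18 of 1 component. Over 4 libraries 2 of the 9 rose (22.2%, against 28.6% of all) and 1 fell (11.1%, against 29%). ESCRT subunits, which sort membrane proteins into inner vesicles, had 1 fall among 7 over 4 libraries (14.3%), no rise and a median of -0.36. Retromer, which recycles sorting receptors, had 1 rise (Vps35, 0.26) and 1 fall (Vps26, -0.28) among 3 over 4 libraries. Each is 33.3%, above the shares of all. The sorting receptor VSR4 (g769) fell by 0.32 over 4 libraries (adjusted p = 0.00105) with 108, 153 and 164 CPM against 123, 131 and 126 CPM, and was not called over 6 (adjusted p = 0.552).

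Sec14-like lipid transfer proteins differed widely among themselves. One Sec14-like transcript (g9213) had 117, 108 and 119 CPM in normal and 53.9, 50.9 and 50.5 CPM in mixotrophic cultures, without overlap, and was 2.28-fold lower over 4 libraries (-1.19 ± 0.1, adjusted p = 6.61e-11) and 2.22-fold lower over 6 (adjusted p = 0.0015). By contrast g8032 had the largest fitted value of all members, 2.99 ± 0.67 over 4 libraries (adjusted p = 0.000336). It rests on 1 and 2 counts in normal replicates 2 and 3, and with 13 counts in normal replicate 1 it was not called over 6 (1.26 ± 0.81, adjusted p = 0.299). As a component sum it had 0.97 over 4 libraries (adjusted p = 0.000422). The secretory member without a description that the rule took for its level, g14692, held 265, 345 and 351 CPM against 505, 548 and 547 CPM and rose by 0.63 over 4 libraries (adjusted p = 1.33e-10) and 0.73 over 6 (adjusted p = 0.012).

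Alpha-SNAP, which helps to take SNARE complexes apart after fusion, was the 1 component whose members were called in opposite directions. Of its 4 transcripts, g7363 rose by 0.23 over 4 libraries (adjusted p = 0.0404, and 0.0668 with the replicate block), while g7364 and g7366 fell by 0.62 and 0.48 (adjusted p = 0.000338 and 0.00389). None of them was called over 6 libraries, and their summed component had -0.06 over 4 (adjusted p = 0.411). In 12 of the 37 components with more than 1 tested member, all tested members were called in the same direction over 4 libraries.

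In the peroxisome class 4 of 5 calls depended on leaving out replicate 1. Of 9 tested members 2 rose (22.2%, against 28.6% of all) and 3 fell (33.3%, against 29%) over 4 libraries. Over 6 libraries 1 rose (11.1%, against 13.3%) and none fell (15.2% of all did). Every fall was of a peroxin. PEX11 (g15952), which shapes and divides peroxisomes, had 106, 244 and 222 CPM in normal and 121, 125 and 114 CPM in mixotrophic cultures. Its normal replicate 1 lay below all mixotrophic libraries, and the fall of 0.98 ± 0.081 over 4 libraries (adjusted p = 1.48e-11) was not called over 6 (-0.67 ± 0.31, adjusted p = 0.162). PEX7, the receptor for the second kind of peroxisomal signal, showed this in both of its transcripts. The first (g493) had 3.03, 20.4 and 27.2 CPM against 6.47, 9.09 and 12.1 CPM (-1.22 ± 0.23, adjusted p = 4.94e-05, and 0.435 over 6), and g6286 had 65.3, 106 and 85.9 CPM against 82.8, 76.9 and 77.4 CPM (-0.33, adjusted p = 0.00995, and 0.714 over 6).

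The rises in this class were of 2 transcripts of the Mpv17 and PMP22 family of membrane proteins. Of these g1883 held 10.7, 12.1 and 8.52 CPM against 23.5, 21.9 and 19.9 CPM (1.02 ± 0.24, adjusted p = 0.000613, and 1.06 over 6, adjusted p = 0.0113). The other, g1882, held 17.6, 12.5 and 15.1 CPM against 19.8, 24.8 and 23.0 CPM (0.76, adjusted p = 0.00286, and 0.0689 over 6).

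Replicate 1 touched the class as it touched the table. Of 79 members called over 4 libraries and tested in both fits, normal replicate 1 lay beyond the midpoint between the conditions, on the mixotrophic side, in 36 (45.6%, and 47.7% of all such transcripts). Mixotrophic replicate 1 lay on the normal side in 1 member (1.27%, and 3.04% of all). Of the 147 members tested in both fits 130 had the same sign, 43 calls over 4 libraries were lost over 6, and none was called in opposite directions.

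**Figure D4:**
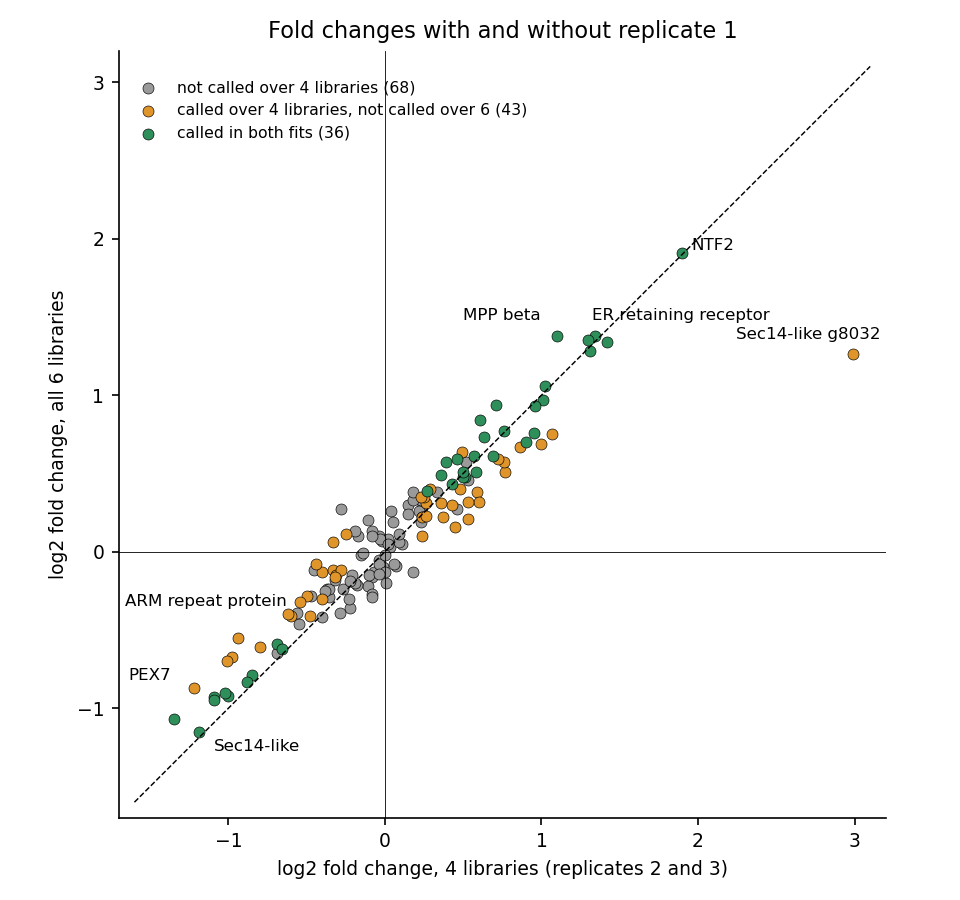
Log2 fold change of 147 targeting transcripts over replicates 2 and 3 (horizontal axis) and over all 6 libraries (vertical axis), coloured by whether they were called. Most points lie near the dashed line of equal values, 36 were called in both fits and 43 over 4 libraries alone, and a Sec14-like transcript (g8032) lies farthest from the line.

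The 11 targeting transcripts low in replicate 1 were Tom22, Tim23, the second Sec61 gamma, an importin alpha (g2066), 5 Sec14-like transcripts and 2 without a description. Of the 9 among them with a scored match, all had a higher score to an *Arabidopsis* than to a *Chlamydomonas* protein, beside 52.2% of the 134 tested members with a match. In the whole group the share was 99.4% of the 692 with a match, beside 48.1% of 6117 among all tested transcripts. No *Chlamydomonas* match was listed for 3 of the 9 and for 362 of the 692. The group was selected for low levels in replicate 1, so its small share of counts there follows from that rule. The group took 0.0758% and 0.0878% of counts in replicate 1 of normal and mixotrophic cultures and 1.4% to 2.1% in the other libraries. With these members left out, 50 targeting transcripts rose and 29 fell over 4 libraries, the difference being Tom22.

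Members without counts were mostly later transcripts of a contig with several. No counts were given to 40 of the 200 members (20%, beside 23.6% of the table), and all 40 lie in an assembly component with counted transcripts. Among members alone on their contig 11 of 153 had no counts, and among those that come later on a contig with several predicted transcripts 28 of 37 had none. In the table as a whole these shares were 11.8% and 84.8%, and no contig had more than 2 counted transcripts. All 3 transcripts of MPP alpha, the partner of MPP beta, were without counts, and lie on contigs whose counted transcripts are annotated to another process. A PEX13 transcript, 2 of Sec61 alpha, 4 of SRP receptor alpha and 2 of a signal peptidase subunit likewise had no counts in any library and a counted neighbour on their contig, and were not tested. Conversely, 9 counted members are the only counted transcript of a contig with several, among them importin beta, Tic22, VSR4 and the pair g10330 and g10332, and whether they hold reads of their neighbour was not tested.

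For 142 members the component holds another transcript, and how reads that fit both were divided is uncertain. Counted once per component, with all counts of a component summed, 39 of 117 targeting components rose (33.3%, against 30.5% of all) and 32 fell (27.4%, against 30.6% of all) over 4 libraries. Over 6 libraries 19 of 116 rose (16.4%, against 14.6% of all) and 11 fell (9.48%, against 17% of all). Of the 119 components with a member, 17 also hold transcripts annotated to another process, so such a sum is not the level of a single gene. As sums, Alb3 g13504 (adjusted p = 0.0549 over 6), cpSRP54 (0.0787 over 4) and SRP54 g3962 (0.107 over 6) also lost their calls.

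Related classes were counted in the same way, beside 28.6% of all transcripts called higher and 29% lower over 4 libraries and 13.3% and 15.2% over 6. Protein folding, which acts on imported and secreted proteins, had 19 rises and 3 falls among 34 tested transcripts over 4 libraries and 10 and 2 over 6, with medians of 0.36 and 0.46. Chloroplast ribosomal proteins, many of which must be imported, rose in 26 of 32 and fell in none over 4 libraries and rose in 24 of 30 over 6, with medians of 0.93 and 0.99. Heat stress proteins, which include cytosolic and organellar chaperones, had 8 rises and 23 falls among 76 over 4 libraries and 4 and 11 among 74 over 6. Vesicle transport had 12 rises (23.5%) and 10 falls (19.6%) among 51 over 4 libraries and 6 and 5 over 6. Protein glycosylation had 7 (a share near that of all) and 3 (12.5%) among 24 and then 3 and 2, and neither of the 2 mitochondrial ribosomal proteins was called over 4 libraries.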

How the data were processed

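RNA of *C. sorokiniana* was sequenced from 3 normal and 3 mixotrophic samples. Following the methods of the paper, the authors assembled the reads of all samples with Trinity, predicted coding transcripts with AUGUSTUS, aligned the reads with Subread and counted them with featureCounts. The labels name BWA and DESeq2, without a version. The deposited values used here are raw counts per transcript. The authors' tables of fold changes, p-values and enrichment, as deposited, were not used. Descriptions of 711 transcripts are removed in the copy used here, 19 of them members. No reference sequence was used, so no sequences are shown.

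Counts of the whole table were scaled by TMM and filtered by filterByExpr (minimum count 10), and the conditions were compared by glmQLFit and a two-sided glmQLFTest of edgeR 4.0.16 (R 4.3.3), with no covariate and Benjamini-Hochberg adjustment over all transcripts tested. The standard error is the ratio of the log2 fold change to the square root of F. The scripts were tested on simulated counts, in which every transcript had the common spread of its fit. Simulated log2 fold changes of 1 were called in 83.1% over 4 libraries and in 11.1% over 6. A missing call over 6 libraries therefore does not show that a change is absent. CPM used the TMM-scaled total of 6 libraries. Replicates 2 and 3 entered the main fit, and the labels do not say that replicates are separate cultures, whereas the methods describe independent repeats. The labels number replicates in both conditions. Over all tested transcripts the deviations of libraries with the same number from their group mean correlated at 0.703, 0.625 and 0.544, and with those low in replicate 1 left out at 0.122, 0.0516 and 0.033, while libraries numbered 2 and 3 correlated as strongly across numbers (0.683 and 0.514, then 0.112 and 0.0374). As each same-numbered pair exceeded 0.1 over all transcripts, blocked values are given where they change a call. DESeq2 1.42.0, other scalings and filters, the block, leaving out libraries and sums per Trinity component were alternatives.

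Members and lists were chosen with earlier results of these data known. For each destination the named transcripts were the 2 called higher and the 2 called lower with the smallest adjusted p over 4 libraries and the 2 with the highest mean CPM, and all others were named after their values were seen. Some peroxisomal transcripts, 1 of them taken by this rule, are not reported here. Roles were assigned from the annotation text. Standard errors include the spread between replicates.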

Additional observations from a re-analysis of the deposited data

How the results depend on the processing

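Counts of members called higher and lower were 50 and 30 over 4 libraries, and RLE scaling or no filter left them at 50 and 30. Upper quartile scaling gave 54 and 25, with 1 nuclear fall, and at least 10 counts in every library gave 51 and 28, with 0 mitochondrial falls. DESeq2 gave 36 and 15 (19.4% and 20% of all tested), with 0 mitochondrial falls, 1 nuclear fall, 1 peroxisomal rise and 8 secretory falls. A minimum log2 fold change of 1 in either direction left 11 rises and 8 falls (11.7% and 12% of all tested), which were 1 and 0 for the nucleus, 1 and 1 for mitochondria, 5 and 0 for the chloroplast, 3 and 6 for the secretory pathway and 1 and 1 for the peroxisome. Without the members low in replicate 1 the rises stayed at 50, the falls were 29 and mitochondrial falls 0. Counts summed per component, with every member given the value of its component, gave 57 rises and 66 falls, of which 7 and 2 were mitochondrial, 47 falls secretory and 4 falls nuclear, over 198 members with a value in place of 149.

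All 6 libraries gave 26 rises and 10 falls, which were 4 and 0 for the nucleus, 2 and 0 for mitochondria, 4 and 3 for the chloroplast, 14 and 7 for the secretory pathway and 1 and 0 for the peroxisome. The replicate block over 6 libraries gave 15 and 8, with 2 and 0 for the nucleus, 2 and 0 for mitochondria, 3 and 3 for the chloroplast, 7 and 5 for the secretory pathway and 1 and 0 for the peroxisome. The replicate block over 4 libraries gave 47 and 26 (26.9% and 27.3% of all), with 1 nuclear fall. Added after the data were seen, DESeq2 over 6 libraries gave 33 and 11 (14.4% and 16.6% of all), with 6 and 0 for the nucleus, 0 mitochondrial falls, 16 and 7 for the secretory pathway and 1 and 0 for the peroxisome. Component sums over 6 libraries, also added afterwards, gave 24 and 19, with 4 and 1 for the nucleus, 0 mitochondrial falls, 4 chloroplast rises, 10 secretory rises and 0 peroxisomal falls. Causes of these differences were not tested.

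Leaving out each library in turn gave 7 to 50 rises and 7 to 29 falls, with 1 to 10 and 0 to 3 for the nucleus, 0 to 2 and 0 to 1 for mitochondria, 3 to 10 and 2 to 6 for the chloroplast, 3 to 26 and 5 to 16 for the secretory pathway and 0 to 2 and 0 to 3 for the peroxisome. Starting from 6 libraries, the counts without normal replicate 1 were 47 and 29, while those without mixotrophic replicate 1, 2 or 3 were 8 and 7, 7 and 7, and 9 and 7, and those without normal replicate 2 or 3 were 16 and 8, and 15 and 8.

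For the transcripts named by rule, 350 of 456 values under these alternatives kept the direction and the side of the threshold, 106 lost the call and 0 changed sign. Except where given in the text, the block changed no call of a transcript named there. Depth limits members with few counts, such as Tom22.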
